A study of Mus musculus with 4 samples.

Results

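The carbonic anhydrase genes of the mouse gastric corpus were followed here on 4 microarrays, which measured wild-type and AMPK-deficient stomachs with and without metformin. The list held 10 genes, named by symbol, and each was read from the probe set annotated to it alone that had the highest mean over the arrays. By that rule 9 of the 10 were measured, of 22180 genes in all: Car2, Car3, Car4, Car5b, Car7, Car8, Car9, Car12 and Car13. Car14 shares its probe set with Aph1a and was not analysed here.

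Carbonic anhydrases are zinc enzymes that convert carbon dioxide and water into bicarbonate and a proton. In the parietal cell, which secretes acid into the stomach lumen, the cytosolic enzyme provides the proton for the gastric pump and the bicarbonate that leaves through the basolateral membrane. Surface cells use bicarbonate to shield themselves from that acid. The isoforms differ in where they work: Car2, Car3, Car7 and Car13 encode cytosolic enzymes, Car5b a mitochondrial one, Car4, Car9, Car12 and Car14 enzymes of the cell surface, and Car8 a related protein without catalytic activity.

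Each group was 1 array. The WT vehicle and WT metformin groups were C57BL/6 mice. The KO groups were AmpkKO mice carrying Atp4b-cre with Prkaa1fl/fl and Prkaa2fl/fl, alleles of the 2 catalytic AMPK subunits. AMPK is the kinase that senses low cellular energy, and the Atp4b promoter drives Cre in parietal cells, while the RNA came from all cells of the corpus. The KO mice had a mixed B6 and FVB background, with littermates as controls only where possible, so genotype cannot be told apart from strain background or from the presence of Cre. All were adults of 8 to 10 weeks, injected intraperitoneally each day for 14 days with metformin (300 mg/kg) or saline vehicle, and the RNA was total RNA of the whole corpus. A difference between single arrays carries no replicate check, and the number of animals per array is unknown.

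As a check of the labels, KO minus WT was -1.28 under vehicle and -0.24 under metformin (log2) for Prkaa1, and -1.71 and -0.50 for Prkaa2. Metformin minus vehicle in WT was -0.55 for Prkaa1 and -0.88 for Prkaa2, larger than the genotype difference under metformin. Whether the probes lie in the deleted exons is unknown. All 10 parietal cell markers and all 5 measured surface pit cell markers (Gkn4 was not measured) lay above 5.03 on every array. That value is the median of all genes' mean log2 values and serves here as the mark of a low level, since no background level came with the arrays. The arrays correlated over genes with r between 0.966 and 0.987. Squamous epithelial genes, which mark the forestomach that borders the corpus, stood apart on the KO metformin array: 5 of 9 measured markers were at least 2-fold higher there than on the KO vehicle array (339 of 22180 genes were), and the markers' summed level was 11.62 (log2) against 9.87 to 10.24 on the other 3 arrays. Krt5 was not measured.

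Windows before a start of Car9 and of Car12 are shown because both genes were highest on the KO metformin array and both are known from other tissues to be induced in hypoxia. Each is the 250 bases before an annotated start in RefSeq (GRCm38.p6), read 5′ to 3′ on the gene's strand, with the hypoxia response core in capitals. The core was searched as ACGTG or GCGTG on both strands. The Car9 window is chr4:43506776-43507025 on the plus strand and the Car12 window is chr9:66713436-66713685 on the plus strand. RefSeq places the Car12 gene at 66712296 to 66766845 on chromosome 9, so that window lies inside the gene, before a start further in, and the sequence upstream of the whole gene was not searched.
Car9: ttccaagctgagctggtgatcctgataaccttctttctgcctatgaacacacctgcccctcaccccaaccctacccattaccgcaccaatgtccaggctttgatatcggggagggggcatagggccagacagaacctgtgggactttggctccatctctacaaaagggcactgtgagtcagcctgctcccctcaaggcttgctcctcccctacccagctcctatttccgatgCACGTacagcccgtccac
Car12: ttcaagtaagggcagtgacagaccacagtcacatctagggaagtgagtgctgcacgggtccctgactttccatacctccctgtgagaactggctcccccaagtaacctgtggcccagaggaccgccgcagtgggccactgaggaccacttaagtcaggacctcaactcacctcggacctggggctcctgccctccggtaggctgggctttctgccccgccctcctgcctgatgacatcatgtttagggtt
The Car9 window holds 1 match, CACGT on the gene's strand, which reads ACGTG on the other strand and ends 14 bases before the start. The Car12 window holds none. Such a core is common, as 38.6% of all 32851 upstream windows of this length hold at least 1. The table gave windows for 6 members, and 4 of these, Car5b, Car7, Car9 and Car14, had a match in at least 1 window. The estrogen-related receptor element TCAAGGTCA, present in 0.387% of all windows, was found in none of the members' windows. Car2, Car3, Car8 and Car13 have no entry.

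Most carbonic anhydrase genes varied by less than 2-fold across the 4 arrays, as most genes of the series did. For 7 of 9 members the highest and the lowest array differed by less than 1 on the log2 scale, that is, by less than 2-fold. Only Car3 (a range of 1.44) and Car12 (1.57) spanned more, where 9.72% of all genes did so. Car2, Car5b, Car9 and Car12 were highest on the KO metformin array (4 of 9, against 19.4% of all genes), while Car3, Car4 and Car8 were lowest there. Metformin went with opposite signs in WT and KO for 8 of 9 members, all but Car8, where 61.6% of all genes had opposite signs. Levels of different genes were read by different probes and are not compared with each other.

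**Figure D1:**
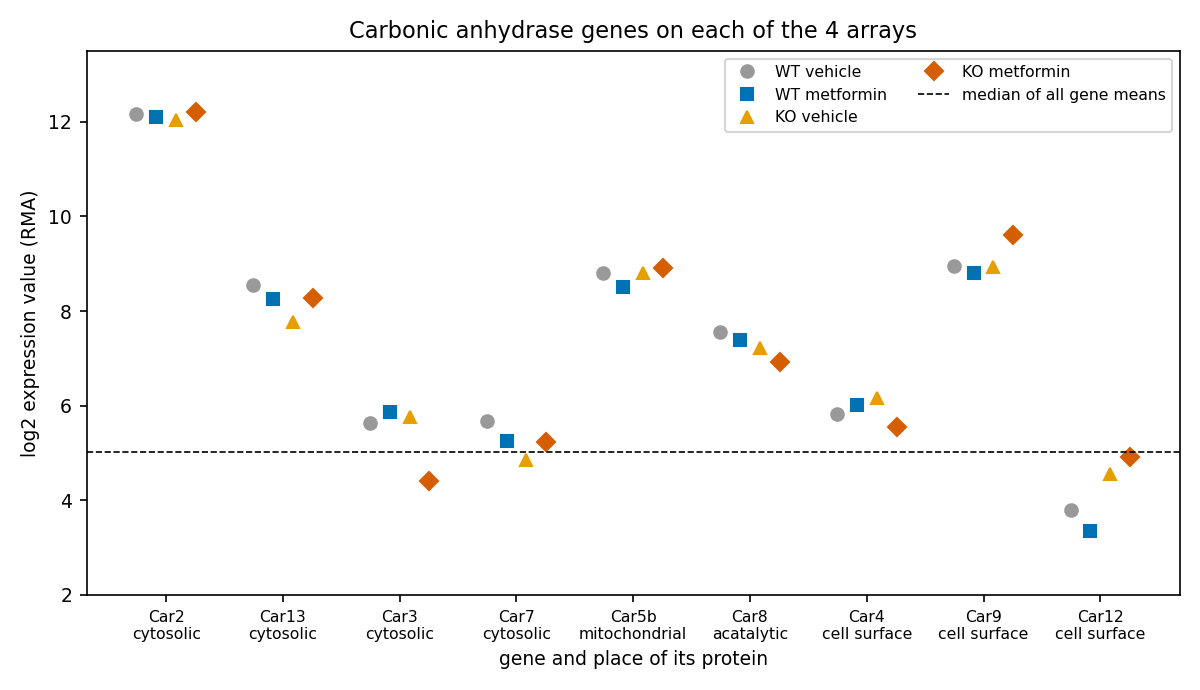
Log2 expression value (vertical axis) of the 9 measured carbonic anhydrase genes (horizontal axis) on each array, 1 point per array, with the dashed line at 5.03. The Car3 point of KO metformin (4.42) lies apart from the other 3, and all Car12 points lie under the line.

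In WT mice, metformin went with small differences, none of them 2-fold (0 of 9 members, against 1.34% of all genes). Of the 9 members 7 were lower with metformin and 2, Car3 and Car4, were higher, with a median of -0.17 against -0.01 over all genes. In KO mice, 6 were higher and 3 lower with metformin, with a median of 0.17 against -0.02 over all genes, and only Car3 passed 2-fold. That is 1 of 9, where 2.51% of all genes passed in either direction and 0.983% were lower. Between genotypes under vehicle no member passed 2-fold (7.24% of all genes did), and the median was -0.02 against 0.03. Under metformin Car12 was higher in KO by more than 1 on the log2 scale and Car3 lower, where 0.631% of all genes were higher by that much and 0.343% lower. These counts go by the log2 difference alone. All Car12 values and the KO metformin value of Car3 lie under 5.03, so their size as a fold is not known. Each genotype comparison shares 1 array with each metformin response, so these are not separate findings. The medians over the genes at or above 5.03 were -0.14, 0.11, -0.22 and 0.02 in the same order of comparisons. For the difference of the metformin responses, KO minus WT, the members' median was 0.41, against -0.02 over all genes and 0.26 over those at or above 5.03.

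**Figure D2:**
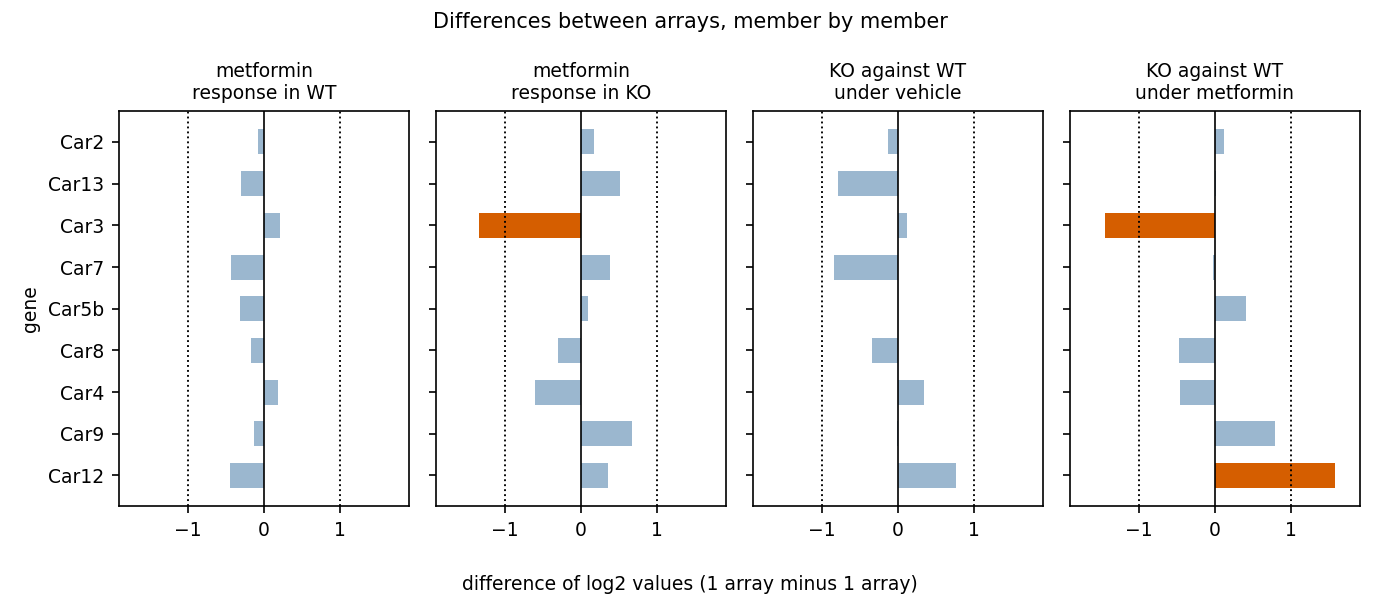
Difference of log2 values (horizontal axis) for each member (vertical axis) in 4 comparisons of 1 array with 1 array, with dotted lines at 2-fold and differences past them in orange. Only Car3 (-1.34 and -1.44) and Car12 (1.57) pass the lines.

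Car2, a highly active cytosolic enzyme found in parietal cells, differed least among the members. Its values were 12.17 with vehicle and 12.09 with metformin in WT, and 12.04 with vehicle and 12.21 with metformin in KO, a range of 0.17. The KO vehicle array was lowest and the KO metformin array highest. Metformin went with a difference of -0.08 in WT and 0.17 in KO, and KO differed from WT by -0.13 under vehicle and 0.11 under metformin. The RNA came from all cells of the corpus, so the cells behind these Car2 values are not known.

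Car13, a further cytosolic enzyme whose gene lies in the same cluster on chromosome 3 as Car1, Car3 and Car2, varied more. It had 8.55 with vehicle and 8.25 with metformin in WT, and 7.76 with vehicle and 8.27 with metformin in KO. The KO vehicle array was lowest, by 0.79 against WT vehicle, while KO and WT were level under metformin (0.02). The difference with metformin was -0.30 in WT and 0.51 in KO. Under cyclic loess, a scaling that bends each array's values to the others, the KO vehicle difference was -0.52.

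The 15 measured genes of a list for acid secretion were set beside these enzymes. On the KO vehicle array all 15 were below WT vehicle, 4 of them at least 2-fold, with a median of -0.46. With cyclic loess 13 of 15 were. All 15 have means at or above 5.03, and of the 11090 such genes 7421 were lower in this comparison, 900 of them at least 2-fold, with a median of -0.22. Cckbr, the gastrin receptor (-1.76), and the water channel Aqp4 (-1.54) were lowest, and the sodium-proton exchanger Slc9a2 (-0.09) and the histamine receptor Hrh2 (-0.11) highest. The pump subunits Atp4a and Atp4b had -0.42 and -0.43. Only Slc9a2 and Hrh2 lay closer to 0 than Car2 (-0.13), while Car13 (-0.79) lay below the list's median. With metformin in WT, 14 of 15 were lower (median -0.43), from Aqp4 (-0.87) and the potassium channel Kcnj16 (-0.84) to Atp4b (-0.19) and Slc9a2 (0.00), and Car2 had -0.08. Of the same 11090 genes 7245 were lower there, with a median of -0.14. Both of these comparisons subtract the WT vehicle array. Between genotypes under metformin 8 of the 15 acid secretion genes were higher and 7 lower (median 0.07, against 0.02 over the 11090 genes). In the KO response 12 of the 15 were higher and 3 lower (median 0.31, against 0.11), and 10 of 15 were higher after cyclic loess. In corpus RNA, fewer parietal cells and less RNA per parietal cell cannot be told apart. Markers of some other cell types were also lower on the KO vehicle array than on WT vehicle: all 6 endothelial markers (median -0.76) and 5 of 6 smooth muscle markers (median -0.93). Others were not: 5 of 6 chief cell markers (median 0.29), 7 of 9 squamous markers (0.68) and 3 of 5 mucous neck cell markers (0.21) were higher. Of the pit cell markers 4 of 5 were lower, with a median of -0.09. The part of these cell types in the differences of Car13 and the acid secretion genes was not tested.

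**Figure D3:**
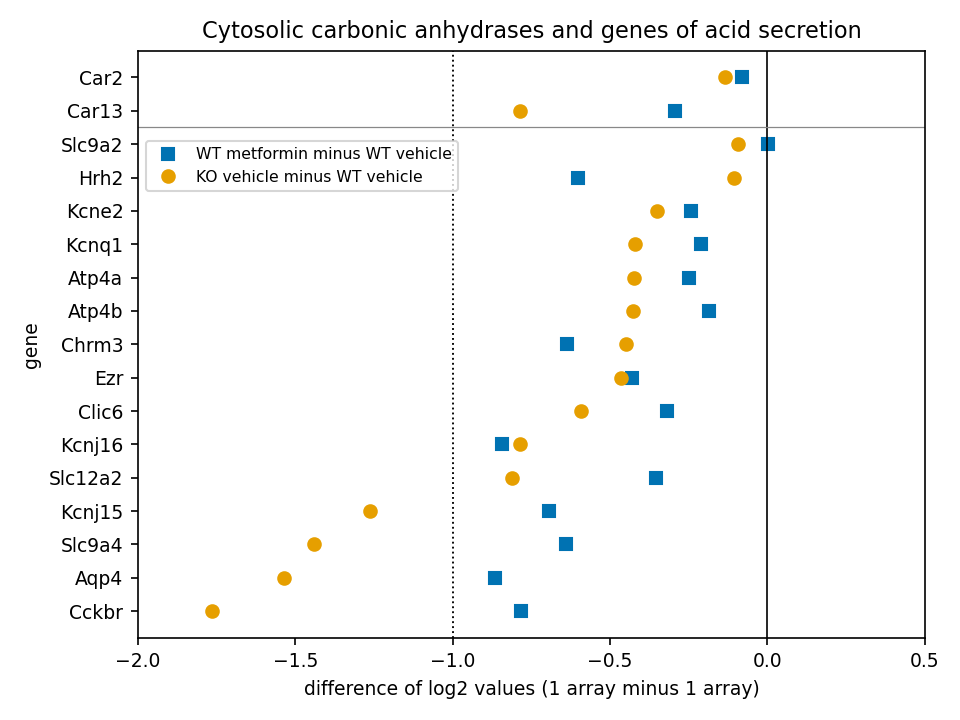
Difference of log2 values from the WT vehicle array (horizontal axis) for Car2, Car13 and 15 genes of acid secretion (vertical axis), for the WT metformin array (squares) and the KO vehicle array (circles), with a dotted line at 2-fold lower. Both sets of points share the WT vehicle array. Car2 lies at -0.08 and -0.13, near 0.

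Car3 had the largest difference of the family with metformin in KO. It encodes a cytosolic enzyme of low catalytic activity that is abundant in adipocytes, skeletal muscle and liver. Its values were 5.64 with vehicle and 5.86 with metformin in WT, and 5.76 with vehicle and 4.42 with metformin in KO. The first 3 lie within 0.22 of each other, and the fourth is lower by 1.34 than KO vehicle and by 1.44 than WT metformin. The KO metformin value is the one under 5.03.

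A further probe set of Car3 had 3.25 on 3 arrays, identical to the last deposited digit, and 2.80 on the KO metformin array. It too was lowest on that array, by 0.45, at levels well under 5.03. With the mean of both probe sets the KO response of Car3 was -0.90 and the genotype difference under metformin -0.94, so neither passed 2-fold. The difference between the metformin responses, KO minus WT, was -1.56 with the probe set used and -1.004 with the mean. Car3 was the 1 member of 9 past 2-fold there, where 5.28% of all genes were lower by that much.

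**Figure D4:**
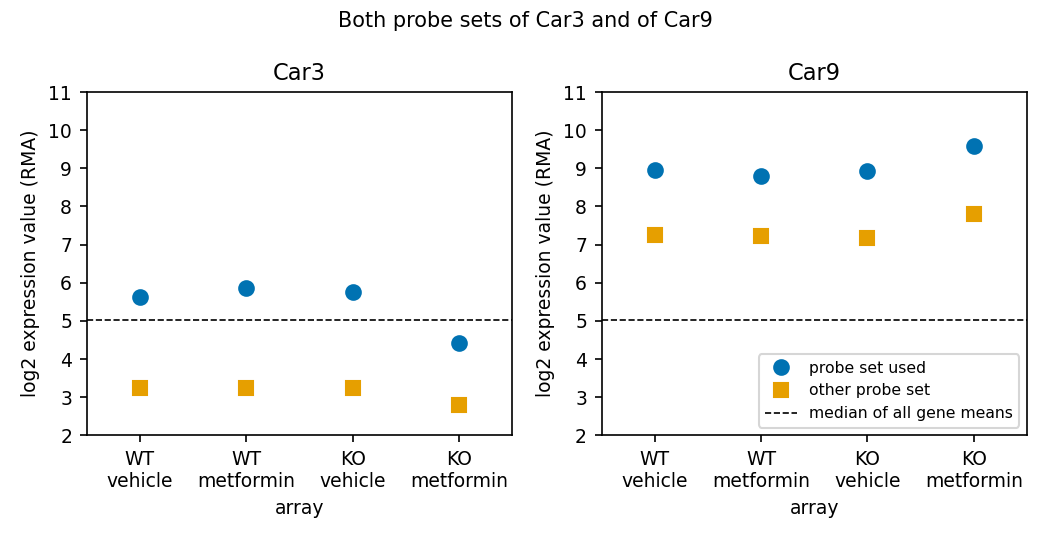
Log2 expression value (vertical axis) of both probe sets of Car3 and of Car9 on each array (horizontal axis), 1 point per array, with the dashed line at 5.03. For Car3 both are lowest on the KO metformin array (4.42 and 2.80), and for Car9 both are highest there (9.60 and 7.81).

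Markers of adipocytes and skeletal muscle are given beside Car3, and liver markers were not analysed here. Of 10 measured adipocyte markers (Cfd was not measured) none was 2-fold lower in the KO response as deposited, where 0.983% of all genes were, and the markers' median was 0.09. After cyclic loess 1 of the 10 was 2-fold lower, and the median was 0.14. The summed level of these adipocyte markers was 10.27 and 10.42 in WT without and with metformin, and 10.73 and 10.49 in KO. The defining adipokine genes Adipoq (3.65 to 3.87) and Lep (3.24 to 3.67) stayed under 5.03 on all arrays. Fabp4, a fatty acid binding protein also made by endothelium, was lower by 0.97 in the KO response, from 9.89 to 8.92. It had 8.60 with vehicle and 9.21 with metformin in WT. Its KO vehicle value was thus the high one, and its KO metformin value lay between the WT values, unlike that of Car3. Of 10 skeletal muscle markers none passed 2-fold in the KO response (median 0.17, summed level 8.09 to 8.34), and 6 were under 5.03 on every array. Of 5 brown adipocyte markers 3 were higher in the KO response and 2 lower (median 0.15), Cidea by 0.88 and Elovl3 by 0.80, and 4 were under 5.03 on every array. Cidea (4.99) and Elovl3 (3.65) were also highest on the KO vehicle array. The part of these tissues in the Car3 difference was not tested.

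The genes whose 4 values ran closest to those of Car3, by Euclidean distance after centring each gene on its mean, were Esm1 (distance 0.181), Cyp2j9 (0.355) and Tfrc (0.395), out of 10375 ranked. Esm1, an endothelial proteoglycan, had 6.09, 6.15, 6.06 and 4.92 in the same order of arrays. Such a likeness over 4 arrays is a description. Of the neighbours of Car3 in the chromosome 3 cluster, Car2 and Car13 were above their KO vehicle values on the KO metformin array. Car1, an erythrocyte and colon enzyme, had 3.06, 3.10, 3.81 and 3.31, all under 5.03, and was lower by 0.50 in the KO response.

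Car7, a cytosolic enzyme best known from neurons, had 5.68 with vehicle and 5.25 with metformin in WT, and 4.85 with vehicle and 5.23 with metformin in KO. The WT vehicle array was highest and the KO vehicle array lowest, a difference of -0.83, while under metformin the genotypes were 0.02 apart. The direction of the metformin difference was opposite in the genotypes, -0.43 in WT and 0.38 in KO. These values lie around 5.03 and 7.14% of all genes were at least as far below WT vehicle on the KO vehicle array.

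Car5b supplies bicarbonate to carboxylation reactions in the mitochondrial matrix. It had 8.81 with vehicle and 8.50 with metformin in WT, and 8.81 with vehicle and 8.91 with metformin in KO, so the WT metformin array was the low one. Its differences were -0.31 with metformin in WT, 0.10 with metformin in KO, 0.00 between genotypes under vehicle and 0.41 under metformin. After cyclic loess the value of 0.10 was -0.06 and that of 0.00 was 0.26.

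Car8, which binds an inositol trisphosphate receptor rather than hydrating carbon dioxide, was the only member lower in all 4 comparisons. It had 7.56 with vehicle and 7.39 with metformin in WT, and 7.21 with vehicle and 6.92 with metformin in KO. Both KO arrays were below both WT arrays, by 0.35 under vehicle and 0.47 under metformin, and metformin values were lower by 0.17 in WT and 0.29 in KO. After cyclic loess the vehicle difference was -0.11. Among the receptor genes, Itpr1 was not measured, Itpr2 stayed between 7.77 and 7.91, and Itpr3 had 8.33, 8.46, 7.73 and 8.61.

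Car9 had its highest value on the KO metformin array. It encodes a transmembrane enzyme that is abundant in gastric epithelium, and mice without it develop overgrowth of surface pit cells. Its values were 8.94 with vehicle and 8.81 with metformin in WT, and 8.93 with vehicle and 9.60 with metformin in KO. The first 3 lie within 0.13 of each other and the fourth is higher by 0.67 than KO vehicle (1.59-fold) and by 0.79 than WT metformin (1.72-fold). Of all genes, 1.38% were at least as far higher in KO against WT under metformin and 5.54% in the KO response. For the difference of the responses, KO minus WT (0.80), the share was 10.6%. A second probe set of Car9 gave 7.26, 7.22, 7.17 and 7.81, a KO response of 0.65. After cyclic loess the differences were 0.51 in the KO response, 0.78 between genotypes under metformin and 0.24 between genotypes under vehicle, where the deposited values gave -0.02. On the same array 7 of 9 squamous markers were higher than on the KO vehicle array, and 4 of 5 mucous neck cell markers were higher than on the KO vehicle array, 2 of them by 2-fold (again against 339 of 22180 genes), from Tff2 (-0.19) to Muc6 (1.22). The summed neck level was 13.33 there and 12.85 to 13.15 on the other arrays. The 5 measured pit cell markers lay from Tff1 (0.00) to Muc5ac (0.83) in the KO response, with 5 of 5 higher as deposited and 3 of 5 after cyclic loess. Between genotypes under metformin 4 of 5 were lower (2 of 5 after cyclic loess), and their summed level was 15.77 against 15.65 to 15.81 on the other arrays. Their part in the Car9 difference was not tested.

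Car9 is a known target of the hypoxia-inducible factors. Of 17 listed genes of the hypoxia response, which include the factor subunits Hif1a and Epas1, 16 were measured and Ankrd37 was not. In the KO response 10 were higher and 6 lower (median 0.21), led by Ndrg1 (1.18) and Epas1 (1.06) and with Pgk1 (-0.62) and Pdk1 (-0.53) lowest. Of the 16, 14 have means at or above 5.03, and of the 11090 such genes 6848 were higher there, with a median of 0.11. As deposited 2 of the 16 were 2-fold higher, where 339 of 22180 genes were. After cyclic loess the median was 0.08 and only 1 of the 16 was 2-fold higher. Between genotypes under metformin, where Car9 had 0.79, the list had a median of 0.07 and no member past 2-fold, from Pgk1 (-0.22) and Bnip3 (-0.21) to the glucose transporter Slc2a1 (0.54) and Epas1 (0.34). Car9 did not pass 2-fold there either, and the part of hypoxia signalling in its difference was not tested.

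Car12, a further transmembrane enzyme, had 3.80 with vehicle and 3.35 with metformin in WT, and 4.56 with vehicle and 4.92 with metformin in KO. Both KO arrays were above both WT arrays, by 0.77 under vehicle and 1.57 under metformin. All 4 values lie under 5.03, and Car12 was the only measured member whose mean did not reach the median of all genes. With metformin it differed by -0.44 in WT and 0.36 in KO. All 9 measured squamous markers were also higher in KO under metformin, 4 of them by 2-fold (140 of 22180 genes were), with a median of 0.94, and their part in the Car12 difference was not tested. The genes closest in pattern were Lce3c (distance 0.194), a cornified envelope gene, and the clock-linked transcription factors Tef (0.222) and Bhlhe41 (0.323), out of 10376 ranked.

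Car4, which is anchored to the outer cell membrane by a lipid, had 5.82 with vehicle and 6.01 with metformin in WT, and 6.15 with vehicle and 5.55 with metformin in KO. The KO metformin array was lowest, by 0.60 against KO vehicle and by 0.45 against WT metformin, and the other 3 lie within 0.34. The endothelium of some tissues carries Car4, and of the 6 endothelial markers all were higher in the KO response (4 of 6 after cyclic loess), with a median of 0.19 and a summed level of 9.50 to 10.30 over the arrays. Between genotypes under metformin 5 of 6 were lower, with a median of -0.25. Their part in the Car4 difference was not tested.

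The transporters that move bicarbonate and chloride with these enzymes were followed as a list of 16, of which 15 were measured and Slc4a7 was not. Between genotypes under metformin none passed 2-fold (median 0.07), where 140 of 22180 genes were 2-fold higher and 76 lower. Under vehicle 9 of 15 were higher in KO and 6 lower (median 0.27). Only 6 of the 15 have means at or above 5.03, so these counts rest largely on low values. Of all 22180 genes 11651 were higher there, with a median of 0.03. Of the 11090 genes at or above 5.03, 3661 were higher, with a median of -0.22. Past 2-fold in the list were 2 higher, the chloride channel Cftr (1.40) and the erythrocyte exchanger Slc4a1 (1.04), and 1 lower. Of all 22180 genes 597 were 2-fold higher there and 1009 lower. After cyclic loess 1 of the 15 was 2-fold higher and 1 lower. In the KO response 5 were higher and 10 lower (median -0.13), with 1 past 2-fold each way, of which Cftr (-1.08) was the lower. Of all 22180 genes 10603 were higher there and 11505 lower, with a median of -0.02. Of all genes 339 were 2-fold higher there and 218 lower, and after cyclic loess none of the list passed 2-fold. All Cftr values lay under 5.03, from 2.33 to 3.79, and those of Slc4a1 lay on both sides of it, from 4.55 to 5.58. Slc4a2, the basolateral exchanger through which parietal cells release bicarbonate, lay between 9.38 and 9.64 on all 4 arrays and, like Car2, differed little. The chloride transporter Slc26a9 had 11.93 with vehicle and 11.47 with metformin in WT, and 10.67 with vehicle and 11.54 with metformin in KO, and was lower in KO under vehicle by 1.27. The sodium bicarbonate cotransporter Slc4a4 was 7.47, 7.49, 6.68 and 7.72 on the same arrays, higher by 1.05 with metformin in KO. Car13, Slc26a9 and Slc4a4 were each lowest on the KO vehicle array.

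A limma fit over all 4 arrays, with genotype and treatment as terms, was made for the 8 members whose mean reached 5.03. It has 1 residual degree of freedom, which is the difference between the metformin responses of WT and KO. Array noise and any unequal response to metformin therefore cannot be told apart in it. No member passed an adjusted p under 0.05, where 5 of 11090 genes (0.0451%) passed for genotype and 0 (0%) for metformin. None had an unadjusted limma p under 0.05, where 374 of the 11090 genes had one for genotype and 32 for metformin. The largest genotype effects were -0.66 (SE 0.40) for Car3, -0.43 (SE 0.33) for Car7, -0.41 (SE 0.30) for Car8 and 0.39 (SE 0.33) for Car9, each with a limma adjusted p of 0.999. The largest metformin effect was -0.56 (SE 0.40) for Car3, with an adjusted p of 1. Fitted over all 22180 genes, Car12 had a genotype effect of 1.17 (SE 0.30), with an unadjusted limma p of 0.00477 and an adjusted p of 1. In that fit 764 of the 22180 genes had an unadjusted limma p under 0.05 for genotype. None of these member effects passed after adjustment. With no replicate arrays, the p-values do not measure a spread between replicates.

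Of 6 other carbonic anhydrase genes outside the list, 5 were measured, and none passed 2-fold in any comparison. Of all genes 1.34% passed in the WT response, 2.51% in the KO response and 7.24% between genotypes under vehicle. Under metformin 0.631% were higher in KO by that much and 0.343% lower. The count is therefore not read as a result about these genes. Car15 had values from 5.87 to 6.28 and Car11, which like Car8 lacks catalytic activity, had 5.12, 5.37, 5.67 and 5.88 in that same order of arrays (WT without and with metformin, then KO). Car1, Car6 and Car10 lay under 5.03 on all arrays, and Car5a shares its probe set with a further gene.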

How the data were processed

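Total corpus RNA was made into biotinylated cDNA (Affymetrix WT Plus), per the labels' protocols. The authors deposited log2 values of 41345 probe sets for 4 arrays, 1 per group; the submitters' processing notes name RMA and Partek. In its usual form RMA gives all arrays 1 distribution of probe values, which can hide a shift of all genes. Whether that step was run is unknown, and the medians over probe sets were 4.40 to 4.55. The sources used here do not give the annotation build. The platform annotation pairs 23521 probe sets with 1 gene, 1814 with several and leaves 16010 unnamed here. RefSeq (GRCm38.p6) gave the present symbol for 23328 of the 23521 by gene identifier. The probe set with the highest mean stood for a gene, which gave 22180 genes.

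Differences are of log2 values, counted at 1 or more (2-fold), with no p-value. Effects of genotype and treatment came from limma 3.58.1 (R 4.3.3, lmFit and eBayes, Benjamini-Hochberg), run on the 11090 genes whose mean reached 5.03. The fit was also run on simulated data. No result of that run is given here, so nothing is concluded from it about these arrays. Other steps used Python 3.11.15, pandas 2.3.3 and numpy 2.4.6. The number of arrays limits the precision.

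Alternatives were cyclic loess, centring on the array median, averaging all probe sets per gene, a threshold of 1.5-fold, other filters and other variance models. Named genes are the members, the other family genes, up to 2 highest and 2 lowest genes and the defining markers of each list discussed, and the 3 nearest patterns of members spanning 1 or more. Slc4a2, Itpr2 and Itpr3 were named after their values were seen. The members and lists were chosen with earlier results of these data known.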

Additional observations from a re-analysis of the deposited data

Results flagged for a closer look

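Metformin went with opposite directions in WT and KO for 8 of the 9 measured members, as it did for 61.6% of all genes. With 1 array per group the difference of the responses was not tested. KO response minus WT response was -1.56 for Car3 and -0.79 for Car4, which were higher with metformin in WT and lower in KO. It was 0.81 for Car7, 0.80 for Car9, 0.80 for Car12, 0.80 for Car13, 0.41 for Car5b and 0.25 for Car2, which were lower with metformin in WT and higher in KO. After cyclic loess Car5b was lower in KO too (-0.06).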

How the results depend on the processing

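No called member difference reversed, and no member passed the adjusted p in limma for either effect under any of its 7 alternatives, 2 of which tested fewer than 8 members. The count of genes called for genotype ran from 0 (filter at the upper quartile) to 40 (centring), and was 5 as reported, 3 with no filter and 8 with an intensity trend; for metformin it was 0, and 3 with centring. Of 135 recomputed member differences 6 turned their sign, all of them at most 0.12 in size as reported. With the mean of probe sets, the count of members past 2-fold was 0 in the KO response and 1 in KO against WT under metformin. Counting only members at or above 5.03, the latter was also 1. After cyclic loess, 2 members passed 2-fold in the difference of responses (Car12 at 1.06 beside Car3), and the members' median there was 0.18 against 0.41 as deposited. A 1.5-fold rule gave 3 members in the KO response, 3 in KO against WT under vehicle and 6 in the difference of responses. The share of all genes past 1.5-fold was not counted, so these counts are not read as a result about the family. In the difference of responses, 9.95% to 10.6% of all genes were at least as far, in the same direction, as each of Car4, Car7, Car9, Car12 and Car13. Centring each array moved the median of all genes from 0.03 to -0.12 in KO against WT under vehicle, where the lower share of genes past 2-fold went from 62.8% to 81.5%, and from -0.02 to 0.14 in the difference of responses (44.6% to 24.3% lower). In the WT response that share went from 50.3% to 66.6% and in the KO response from 39.1% to 23.6%. Apart from the construction of each alternative, the cause of these shifts was not tested. No paired analysis was possible because each group has 1 array and the labels give no replicate numbers. Values near or under 5.03 (Car3, Car7, Car12) are limited by the unknown background.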
